A study of Homo sapiens with 4 samples.

Results

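Long non-coding RNA genes of Z138 cells were compared between cells with hairpins against SOX11 and cells with control hairpins. Genes were taken where the single gene symbol of a probe set begins with LINC or SNHG and a digit, ends in -AS and a digit, has the form of a microRNA host gene (MIR, letters or digits, HG), or is MALAT1, NEAT1, GAS5, DLEU1 or DLEU2. The arrays carry 1666 such genes, and 445 of them had a signal above 24.83, the median of all deposited values, on at least 2 of the 4 arrays. These 445 genes are described here, among 11938 genes that passed the same signal filter. They comprised 262 antisense genes, 162 LINC genes, 11 microRNA host genes, 7 host genes of small nucleolar RNAs (snoRNAs), DLEU1, DLEU2 and MALAT1. They were thus chosen by symbol and by their signal on these arrays, and a gene that passed only because it was bright on both arrays of 1 group had to differ between the groups. At the edge of the filter, LINC00944 and CD81-AS1 had a second highest signal of 24.85 and 24.89 and were kept, and PAXBP1-AS1 and ST3GAL3-AS1, at 24.76 and 24.72, were not.

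Z138 cells are an established line from a mantle cell lymphoma, which is a cancer of mature B cells. Both groups were stably transduced with lentiviral short hairpin RNAs: the shSOX11 cells carried shSOX11.1 or shSOX11.3, which target SOX11, and the shControl cells carried the scramble constructs shControl.1 or shControl.2. Total RNA of each was labelled with biotin and hybridised to 1 Affymetrix U133 Plus 2.0 array. Each array is a different construct in a single line, and no label gives separate cultures of a construct, so p-values measure the spread between these 4 samples only, which may be technical. Values are MAS5 signal intensities on a linear scale, and differences are shSOX11 minus shControl on the log2 scale, with the standard error (SE) of limma's moderated fit over all genes.

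Long non-coding RNAs are transcripts that are spliced and often polyadenylated like messenger RNA but are not known to encode a protein. Some stay in the nucleus and associate with its bodies, as MALAT1 does with nuclear speckles and NEAT1 with paraspeckles. Others serve as precursors: snoRNAs, which guide chemical modification of ribosomal RNA, are cut from the introns of host genes such as GAS5 and the SNHG genes, and microRNAs are cut from host transcripts such as MIR17HG. Antisense genes lie opposite, or next to the start of, a protein-coding gene, and LINC genes lie between genes.

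All arrays had the same 2% trimmed mean, 150.0, and the median signal lay between 23.9 and 25.7. SOX11 signals were 335 and 339 in shSOX11 cells, against 797 and 787 on the shControl arrays (-1.23, SE 0.15, limma adjusted p = 0.131). The B-cell genes CD79A, CD79B, MS4A1, PAX5 and BLK, as well as CCND1, were above the threshold on all 4 arrays, CD22 was on 3 of them, and CD5, a common surface marker of this lymphoma, was under it on all of them. The summed signal of the 6 B-cell markers was 8399 and 9913 on shSOX11 arrays and 11541 and 10936 on shControl arrays. Of 5 T and NK cell markers only CD247 was above it on all arrays, of 4 myeloid markers none was, and the summed signal of the T and NK cell markers was 150 and 111 on shSOX11 arrays and 214 and 188 on shControl arrays. For the myeloid markers this sum was 63.1 and 69.0 on shSOX11 arrays and 39.4 and 31.1 on shControl arrays, and for the erythroid markers HBB and ALAS2 it was 68.5 and 55.8 on shSOX11 arrays, against 87.9 and 49.1 on shControl arrays. Control probe sets for beta-actin at either end of its messenger RNA report on RNA integrity, and their 3′ over 5′ ratio was 7.29 and 5.31 on shSOX11 arrays and 11.6 on both shControl arrays. The same ratio for GAPDH was 1.01 and 1.03 on shSOX11 arrays and 0.978 and 1.06 on shControl arrays. The actin ratio moved with the groups while the GAPDH ratio overlapped, and the part of RNA integrity in the differences given here was not tested. In such bulk RNA, fewer cells of a kind and less RNA per cell cannot be told apart.

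The starts of the snoRNA host genes are shown because 6 of these 7 genes were lower on the shSOX11 arrays in the mean. SNHG33, whose probe sets disagree in direction, is left out. Each line gives the RefSeq start of the gene on GRCh38.p14 with 50 bases on either side, and capitals mark the first 10 bases from that start. SNHG32 lies at chr6:31834866-31834965 (plus strand), SNHG19 at chr16:2155309-2155408 (minus), SNHG17 at chr20:38435279-38435378 (minus), SNHG4 at chr5:139274051-139274150 (plus), GAS5 at chr1:173868996-173869095 (minus), SNHG22 at chr18:49813973-49814072 (plus), and EPB41L4A-AS1, an antisense gene that hosts SNORA13, at chr5:112160476-112160575 (plus).
SNHG32: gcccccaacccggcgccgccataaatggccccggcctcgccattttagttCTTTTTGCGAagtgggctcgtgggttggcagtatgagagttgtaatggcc
SNHG19: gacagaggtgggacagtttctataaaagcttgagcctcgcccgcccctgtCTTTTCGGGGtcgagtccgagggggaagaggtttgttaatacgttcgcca
SNHG17: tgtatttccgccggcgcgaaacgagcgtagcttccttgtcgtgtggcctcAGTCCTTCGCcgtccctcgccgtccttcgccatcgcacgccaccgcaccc
SNHG4: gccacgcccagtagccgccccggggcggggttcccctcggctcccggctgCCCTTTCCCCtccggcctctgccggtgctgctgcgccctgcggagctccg
GAS5: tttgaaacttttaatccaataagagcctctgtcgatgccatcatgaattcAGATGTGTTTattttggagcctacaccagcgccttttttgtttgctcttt
SNHG22: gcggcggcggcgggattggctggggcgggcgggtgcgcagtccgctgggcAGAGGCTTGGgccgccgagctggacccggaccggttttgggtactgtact
EPB41L4A-AS1: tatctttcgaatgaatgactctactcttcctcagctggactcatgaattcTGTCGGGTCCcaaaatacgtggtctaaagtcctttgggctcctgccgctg
Transcripts of the translation machinery and many snoRNA hosts are known to begin with a C followed by a run of C and T, the terminal oligopyrimidine tract. A start with C and then at least 4 bases that are C or T was found in SNHG32, SNHG19 and SNHG4, that is in 3 of the 7 snoRNA host genes, against 4.04% of 27305 genes in the RefSeq promoter table and 10 of the 348 long non-coding RNA genes of this study that the table lists. The E-box CACGTG, searched in the 300 bases around each start, was in none of the 7 and in 7.43% of all genes. A match describes these letters and is not evidence of a bound factor or of a start used in Z138 cells.

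The brightest 3 snoRNA host genes, SNHG32, SNHG19 and SNHG17, had lower signals with each SOX11 hairpin than with either control hairpin, by 1.39-fold to 1.46-fold in the mean. SNHG32, whose span holds SNORD48 and SNORD52, had signals of 1981 and 1611 on the shSOX11 arrays, against 2662 and 2331 on the shControl arrays. Its log2 means were 10.80 ± 0.21 and 11.28 ± 0.14 (SD, n = 2 each), with a difference of -0.48 (SE 0.16, limma adjusted p = 0.502). SNHG19, host of SNORD60, had 1120 and 1067 on shSOX11 arrays, against 1486 and 1700 on shControl arrays (log2 means 10.09 ± 0.05 and 10.63 ± 0.14). The groups did not overlap in either gene. The difference of SNHG19 was -0.54 (SE 0.15, limma adjusted p = 0.405), and its probe set is of the _x_at kind, which Affymetrix marks for possible cross-hybridization. SNHG17, which hosts members of the SNORA71 family, had 499.7 and 559 on shSOX11 arrays, against 724 and 824 on shControl arrays (-0.55, SE 0.16, limma adjusted p = 0.446). A second SNHG17 probe set showed the same order, with 435 and 395 on shSOX11 arrays and 568 and 581 on shControl arrays, a difference of -0.47. None of the 3 genes passed the threshold of 0.05 after adjustment over the 11938 genes.

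At the probe set used for each, the other 4 genes of the class did not separate the groups. SNHG33 had 482 and 363 on shSOX11 arrays, against 480 and 444 on shControl arrays (-0.14, SE 0.19), while its second probe set went the other way, with 316 and 269 on shSOX11 arrays, against 248 and 209 on shControl arrays. GAS5, a growth arrest transcript with 11 snoRNA genes in its span, was read by 1 probe set of its own, at 63.1 and 99.9 on shSOX11 arrays and 84.4 and 129 on shControl arrays (-0.39, SE 0.32). Another 4 probe sets name GAS5 together with its small RNAs, so these values do not stand for the whole GAS5 signal. SNHG4 had 36.2 and 58.5 on shSOX11 arrays, against 57.6 and 70.2 on shControl arrays (-0.47, SE 0.36), and SNHG22 had 33.5 and 23.1 on shSOX11 arrays, against 21.2 and 27.5 on shControl arrays (0.20, SE 0.55). The groups overlapped in these 4 genes. The antisense gene EPB41L4A-AS1, the host of SNORA13, had 1228 and 1291 on shSOX11 arrays, against 1756 and 1421 on shControl arrays (-0.33, SE 0.16, limma adjusted p = 0.598). It was brighter than SNHG19 and SNHG17, its groups did not overlap, and it was lower at both of its probe sets.

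Of the 7 snoRNA host genes 6 were lower in the mean, with a median difference of -0.47. The median over all 11938 genes was -0.06, with 6931 lower and 5007 higher. Against the control mean, the class had a median of -0.51 in shSOX11.1 cells and of -0.35 in shSOX11.3 cells. Groups did not overlap, on the lower side, in 3 of the 7 genes, and among all genes that share was 24.9% on the lower side and 16.2% on the higher side. Most hosts are read by probe sets that name the host together with its small RNAs and so belong to no single symbol. Looked at after the values above were seen, 24 such probe sets, naming 15 host genes, passed the signal filter, 21 of them lower and 3 higher, with differences from -0.96 to 0.40 and a median of -0.26. Of all 28202 probe sets past the filter 53.3% were lower. In 15 of the 24 (62.5%) both shSOX11 signals lay under both shControl signals and in 1 they lay above, where the shares over all 28202 probe sets past the filter were 21.8% on the lower side and 18.9% on the higher side. Of the 24, 19 had a mean signal over 100, and the shares within these 19 were not counted. Over the 14669 probe sets at that level the shares were 23% and 21.2%. Several of these probe sets read the same host, so they are not independent, and this comparison has no test.

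**Figure D1:**
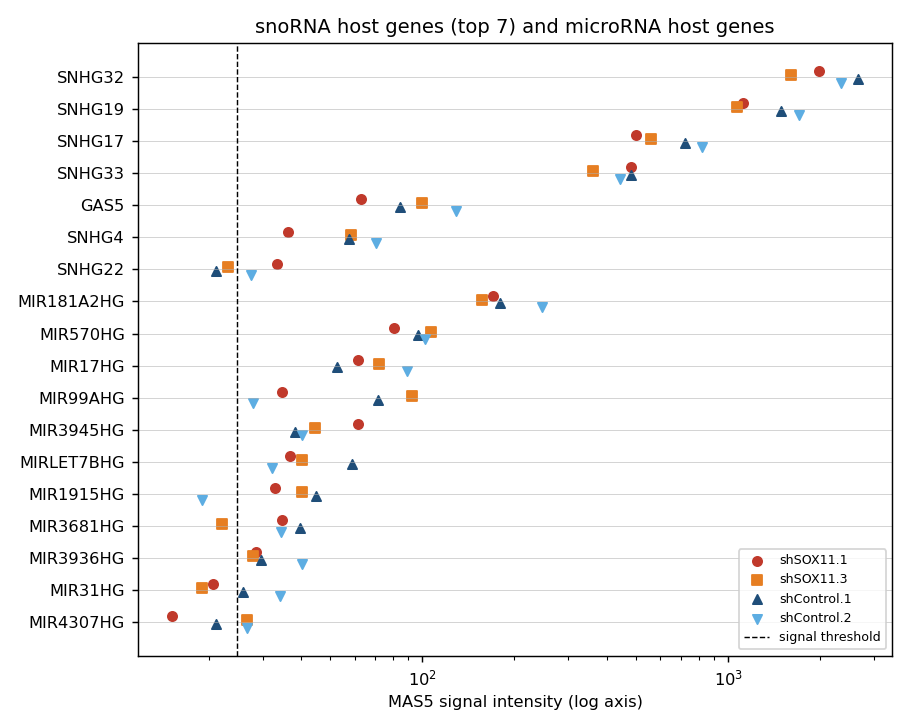
MAS5 signal on each array (log axis) for the 7 snoRNA host genes, at the top, and the 11 microRNA host genes, with the signal threshold of 24.83 as a dashed line. Both shSOX11 points of SNHG32, SNHG19 and SNHG17 lie left of both shControl points, while most microRNA host genes sit close to the threshold.

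MicroRNA host genes were dim, with a median signal of 41.0 over the class, and none separated the groups by 1.5-fold. The mature microRNAs of the hosts that follow are shown because they are what these transcripts are known for. The arrays read the host transcript, and mature microRNAs were not measured. RefSeq places these hairpins inside the host spans on GRCh38.p14, and capitals mark the seed, bases 2 to 8, which pairs with target messenger RNAs. The first 6 are listed under MIR17HG, the next pair under MIR181A2HG and then a pair under DLEU2. After them, 1 is under MIR31HG, 3 are under MIR99AHG and the last pair is under MIRLET7BHG. Other loci that may give the same microRNAs were not searched.
hsa-miR-17-5p: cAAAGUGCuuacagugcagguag
hsa-miR-20a-5p: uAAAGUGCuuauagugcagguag
hsa-miR-18a-5p: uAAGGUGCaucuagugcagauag
hsa-miR-19a-3p: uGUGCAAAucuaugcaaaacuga
hsa-miR-19b-3p: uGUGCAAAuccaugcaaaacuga
hsa-miR-92a-3p: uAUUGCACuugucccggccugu
hsa-miR-181a-5p: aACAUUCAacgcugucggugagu
hsa-miR-181b-5p: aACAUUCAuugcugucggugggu
hsa-miR-15a-5p: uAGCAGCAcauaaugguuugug
hsa-miR-16-5p: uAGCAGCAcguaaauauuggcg
hsa-miR-31-5p: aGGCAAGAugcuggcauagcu
hsa-miR-99a-5p: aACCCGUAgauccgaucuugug
hsa-let-7c-5p: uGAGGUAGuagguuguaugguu
hsa-miR-125b-5p: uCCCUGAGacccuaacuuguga
hsa-let-7a-5p: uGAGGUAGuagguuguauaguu
hsa-let-7b-5p: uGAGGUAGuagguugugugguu
These 16 microRNAs hold 10 different seeds. Within MIR17HG, miR-17 and miR-20a share 1 seed and miR-19a and miR-19b another. The 3 let-7 members share a seed across MIR99AHG and MIRLET7BHG, miR-181a and miR-181b share one within MIR181A2HG, and miR-15a and miR-16 share one within DLEU2.

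MIR181A2HG, a host of miR-181a and miR-181b, was the brightest of the class. It had 170 and 156 on shSOX11 arrays, against 179 and 246 on shControl arrays (-0.36, SE 0.21, limma adjusted p = 0.652). Its groups did not overlap, but the lower shControl value lay close to the higher shSOX11 value. MIR17HG, the precursor of the growth-promoting miR-17-92 cluster, had 61.4 and 72.2 on shSOX11 arrays and 52.4 and 89.0 on shControl arrays (-0.04, SE 0.33, and 0.047 with each array centred on its median). The spread between its 2 shControl arrays was larger than the difference between groups. MIR570HG had 80.5 and 106 on shSOX11 arrays and 96.7 and 102 on shControl arrays. The hosts MIR99AHG, MIRLET7BHG, MIR1915HG, MIR3681HG and MIR4307HG also overlapped between groups. MIR99AHG showed the widest scatter, at 34.7 and 92.7 on shSOX11 arrays and 71.4 and 27.9 on shControl arrays. MIR3945HG was higher with both SOX11 hairpins, at 61.4 and 44.4 on shSOX11 arrays, against 38.2 and 40.4 on shControl arrays (0.41, SE 0.37). MIR3936HG, at 28.5 and 27.9 on shSOX11 arrays, against 29.5 and 40.4 on shControl arrays, and MIR31HG, at 20.7 and 19.1 on shSOX11 arrays, against 25.9 and 34.3 on shControl arrays, were lower on both. MIR31HG was under the threshold on both shSOX11 arrays, so only a bound holds, at least 1.20-fold lower. Over the 11 hosts 8 were lower and 3 higher, with a median of -0.18 and limma adjusted p from 0.652 to 0.979. Against the control mean, the class had a median of -0.28 in shSOX11.1 cells but of 0.08 in shSOX11.3 cells.

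DLEU1 and DLEU2 lie in the chromosome 13 region that is often deleted in lymphoid leukaemia. DLEU2, a host of miR-15a and miR-16, had 974 and 1011 on shSOX11 arrays, against 1069.8 and 1094 on shControl arrays (-0.12, SE 0.14, limma adjusted p = 0.805). The groups did not overlap there, but its 6 probe sets past the filter had differences from -0.22 to 0.43. DLEU1 had 825 and 604 on shSOX11 arrays and 725 and 657 on shControl arrays (0.03, SE 0.19), with the shControl values inside the shSOX11 range.

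MALAT1, the speckle-associated transcript, gave the brightest signal of all long non-coding RNA genes. At its brightest probe set it had 13648 and 13242 on shSOX11 arrays, against 13751 and 14771 on shControl arrays. The log2 mean was 13.71 ± 0.03 with SOX11 hairpins and 13.80 ± 0.07 with control hairpins (SD over 2 arrays), a difference of -0.08 (SE 0.13, limma adjusted p = 0.855) that was 0.11 after quantile normalization. The other probe sets did not follow it. Of its 12 probe sets 11 were higher in the mean, with differences up to 0.87 and a median of 0.26, and 9 had their highest value on shSOX11.3. At the third brightest probe set shSOX11.1 had 3486 and shSOX11.3 had 10506, against 3498 and 5826 on shControl arrays. At the fifth in brightness, of the _x_at kind, it was 1367 and 3447 on shSOX11 arrays, against 1120 and 1263 on shControl arrays, and at the seventh it was 711 and 1867.5 on shSOX11 arrays, against 531 and 756 on shControl arrays. The signal on shSOX11.3 was over 1.5 times that on shSOX11.1 in 5 of the 12, so the 2 SOX11 hairpins stood far apart there. Both shSOX11 signals lay above both shControl signals in 2 probe sets and under them in 1. NEAT1 was on the arrays only at 9 probe sets that also name MIR612, so no value is given for it.

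**Figure D2:**
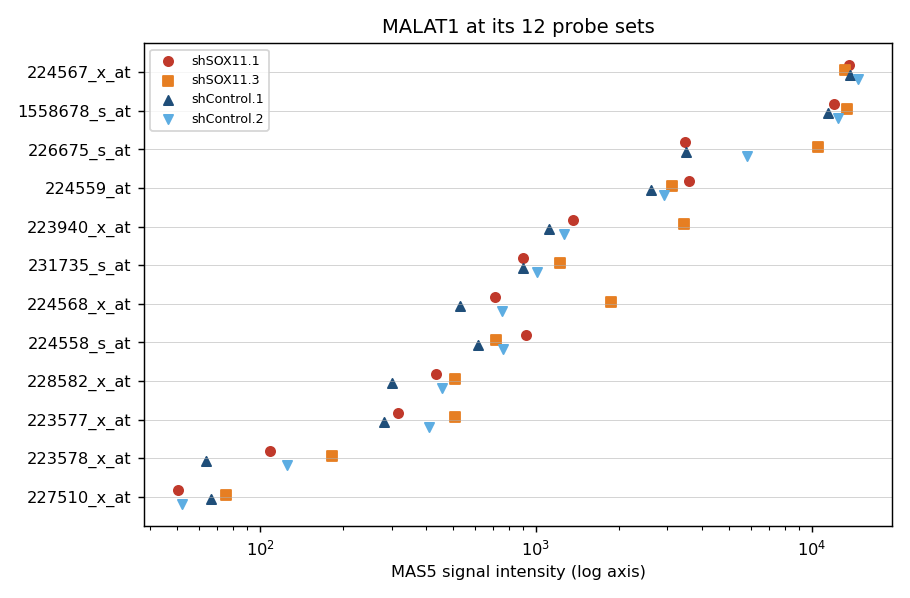
MAS5 signal on each array (log axis) at the 12 MALAT1 probe sets, ordered by mean signal over the 4 arrays with the brightest at the top. The 4 arrays lie close together at the top 2 probe sets, and shSOX11.3 stands far to the right at the third, the fifth and the seventh.

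Across all 445 genes, 0 passed an adjusted p of 0.05 in limma, as for all 11938 genes (0%). Without adjustment 18 genes (4.04%) had a limma p under 0.05, 17 lower and 1 higher, where 8.38% of all genes did, 4.98% lower and 3.4% higher. This share depends on signal. Above a mean signal of 100 it was 9 of 79 long non-coding RNA genes, against 814 of 7617 genes. Between 50 and 100 it was 3 of 88, against 94 of 1502, and at 50 or less 6 of 278, against 93 of 2819. The smallest adjusted p in limma was 0.356. Of the 445 genes 274 were lower and 171 higher, where 6931 of all 11938 genes were lower and 5007 higher. The median difference was -0.10 beside -0.06 for all genes, or -0.021 beside 0.02 with each array centred on its median. The groups did not overlap in 102 genes on the lower side (22.9%) and 47 on the higher side (10.6%), against 24.9% and 16.2% of all genes. These shares lie near or under those of all genes. By mean signal, the lower and higher shares were 21.6% and 11.2% of the genes at 50 or less (all genes 22.5% and 11.7%), 22.7% and 9.09% of those between 50 and 100 (all genes 25.2% and 13.4%), and 27.8% and 10.1% of those above 100 (all genes 25.7% and 18.3%).

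Long non-coding RNA genes were much dimmer than genes in general, and like other dim genes they varied more between arrays of a group. Their median signal was 36.0, against 200.7 over all genes tested, and 278 of the 445 (62.5%) had a mean signal of 50 or less, against 23.6% of all genes. Only 7 had a mean signal over 1000: MALAT1, OIP5-AS1, SNHG32, EPB41L4A-AS1, SNHG19, FGD5-AS1 and DLEU2. The median absolute log2 difference between the 2 shSOX11 arrays was 0.43 and between the 2 shControl arrays 0.36, against 0.30 and 0.18 over all genes. At a mean signal of 50 or less these spreads were 0.54 and 0.45 for long non-coding RNA genes, against 0.56 and 0.49 for all genes.

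**Figure D3:**
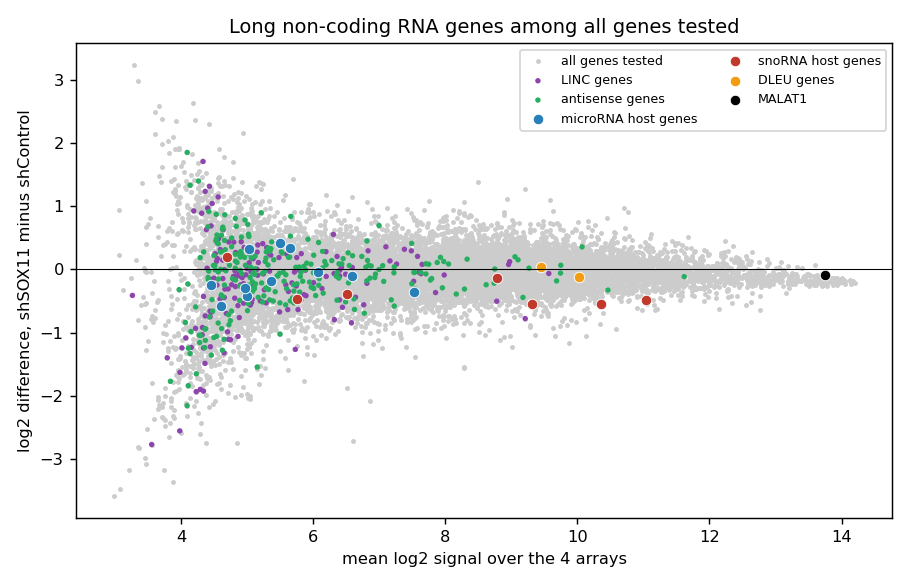
Each point is a gene, with the mean log2 signal over 4 arrays on the horizontal axis and the log2 difference, shSOX11 minus shControl, on the vertical axis, for all 11938 genes in grey and the 445 long non-coding RNA genes in colour. Most coloured points crowd at low signal, where the cloud of all genes is widest, and the bright snoRNA host genes lie under 0.

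Among LINC genes, which are named by number and of which few have an established role, the smallest p belonged to LINC01215. It had 513 and 398 on shSOX11 arrays, against 834 and 721 on shControl arrays, which is 1.72-fold lower. The log2 mean was 8.82 ± 0.26 with SOX11 hairpins and 9.60 ± 0.15 with control hairpins (SD over 2 arrays). The difference was -0.78 (SE 0.18, limma adjusted p = 0.356). Every shSOX11 value lay under every shControl value. Its nearest protein-coding neighbour IFT57, an intraflagellar transport gene, had 421 and 429 on shSOX11 arrays and 344 and 359 on shControl arrays, a difference of 0.28. LINC02175 had 72.6 and 70.2 on shSOX11 arrays, against 118 and 139 on shControl arrays (-0.84, SE 0.23, limma adjusted p = 0.408). Its groups were well apart at that probe set, while its second probe set lay at 0.16. LINC00623 had 400.0 and 340.1 on shSOX11 arrays, against 565 and 484 on shControl arrays (-0.50, SE 0.17), at an _x_at probe set. LINC03124 had 70.7 and 52.0 on shSOX11 arrays, against 99.9 and 111 on shControl arrays (-0.80, SE 0.27). All 4 of these genes were lower on both shSOX11 arrays. On the higher side, LINC02076 had 72.2 and 127 on shSOX11 arrays, against 61.2 and 69.6 on shControl arrays (0.55, SE 0.32), and LINC00671 had 38.6 and 34.2 on shSOX11 arrays, against 27.1 and 4.56 on shControl arrays (1.71, SE 0.91). Both were higher on both shSOX11 arrays, and shControl.2 was far under the other 3 arrays for LINC00671. Without 1 array the differences ranged from 0.14 to 0.96 for LINC02076 and from 0.42 to 3.0 for LINC00671.

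The LINC genes as a class held 107 lower and 55 higher genes, with a median of -0.13, where all genes held 6931 lower and 5007 higher. Of the LINC genes 7 (4.32%) were under an unadjusted 0.05, all lower, beside 4.98% of all genes. Of the 7, LINC00092, LINC00304 and LINC01920 passed the signal filter only through the shControl arrays. The nearest protein-coding neighbour, taken from the RefSeq table (GRCh38.p14), was tested for 89 of them. The neighbours had a median difference of 0.00313, against -0.11 for these LINC genes, and 41 of the 89 pairs had the same sign. Across the 89 pairs Pearson's r was -0.12 and Spearman's rho -0.08, as a description of pairs that share the same 4 arrays. LINC00824, whose neighbour is the growth regulator MYC, had 19.2 and 16.6 on shSOX11 arrays and 41.8 and 35.5 on shControl arrays. MYC itself had 7339 and 5729 on shSOX11 arrays and 5501 and 5740 on shControl arrays, and these overlapped. LINC00208, next to the B-cell kinase gene BLK, had 19.3 and 17.3 on shSOX11 arrays, against 37.9 and 41.1 on shControl arrays, and BLK overlapped between groups.

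Antisense genes had a median difference of -0.06, with 151 lower and 111 higher, where all genes held 6931 lower and 5007 higher. Against the control mean, their median was 0.04 in shSOX11.1 cells but -0.12 in shSOX11.3 cells. The brightest was OIP5-AS1, a cytoplasmic transcript also known as cyrano, which had 3679 and 2477 on shSOX11 arrays and 3274 and 3259 on shControl arrays (-0.11, SE 0.19), with the shControl values inside the shSOX11 range. FGD5-AS1 was the only 1 of the 445 genes that was higher at an unadjusted p under 0.05. It had 1199.9 and 1235 on shSOX11 arrays, against 924 and 978 on shControl arrays, 1.28-fold higher (0.36, SE 0.14, limma adjusted p = 0.560). Its groups did not overlap. TRIM52-AS1 had 85.0 and 87.2 on shSOX11 arrays, against 131 and 148 on shControl arrays (-0.69, SE 0.22, limma adjusted p = 0.462), and its second probe set lay at -0.01. TTN-AS1 had 28.8 and 34.8 on shSOX11 arrays, against 73.7 and 56.2 on shControl arrays (-1.02, SE 0.37, limma adjusted p = 0.519), and its second probe set lay at -0.33. At the probe sets used, TRIM52-AS1 and TTN-AS1 were lower on both shSOX11 arrays. ATXN1-AS1 had 191 and 226 on shSOX11 arrays, against 156 on both shControl arrays (0.41, SE 0.19). NUTM2B-AS1 had 121 and 218 on shSOX11 arrays, against 80.9 and 124 on shControl arrays (0.70, SE 0.33), DTNB-AS1 had 60.02 and 76.3 on shSOX11 arrays, against 54.6 and 26.2 on shControl arrays (0.84, SE 0.42), and MATN1-AS1 had 63.6 and 40.3 on shSOX11 arrays, against 37.2 and 19.9 on shControl arrays (0.90, SE 0.49). Only NUTM2B-AS1 overlapped between groups, and its second probe set lay at -0.42. Without 1 array the differences ranged from 0.27 to 1.12 for NUTM2B-AS1, from 0.31 to 1.37 for DTNB-AS1 and from 0.45 to 1.35 for MATN1-AS1.

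For 194 antisense genes the sense gene, named by the same symbol without its -AS ending, was also tested, and in RefSeq 162 of these pairs overlap in span and 190 overlap or lie within 5 kb. The arrays are not stated to separate strands beyond the design of each probe, so a probe set named for either partner is taken as annotated. The median log2 change of antisense genes with a tested sense gene was -0.11, and it was -0.026 with each array centred on its median and -0.0079 without shSOX11.3. For the sense genes it was -0.07, and 0.015 with centring. Both were lower in 70 pairs and both higher in 33, while 48 pairs had a lower antisense and a higher sense gene and 43 the reverse. Across pairs Pearson's r was 0.05 and Spearman's rho 0.04, again a description over pairs that share arrays. The sense gene was the brighter in 157 of the 194 pairs.

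The 6 pairs described next have the largest fitted antisense differences, which include signals under the threshold and so give no order of size. With 1 group wholly under the threshold, TMEM51-AS1 and A1BG-AS1 were at least 1.31-fold and 1.34-fold lower, and LDLRAD4-AS1 at least 1.12-fold higher. TMEM51-AS1 had 15.5 and 5.34 on shSOX11 arrays, against 38.6 and 27.6 on shControl arrays, and TMEM51, a membrane protein gene, had 25.4 and 9.47 on shSOX11 arrays, against 40.9 and 38.3 on shControl arrays. Both were lower on both shSOX11 arrays. A1BG-AS1 had 13.8 and 8.09 on shSOX11 arrays, against 41.7 and 26.5 on shControl arrays, and A1BG, a plasma glycoprotein gene, had 93.1 and 55.2 on shSOX11 arrays, against 109.8 and 98.2 on shControl arrays. Both genes of this pair were also lower on both shSOX11 arrays. LDLRAD4-AS1 went opposite to its sense gene, with 29.9 and 25.98 on shSOX11 arrays, against 7.97 and 15.4 on shControl arrays, where LDLRAD4, an inhibitor of TGF-beta signalling, had 237 and 165 on shSOX11 arrays, against 280.3 and 267 on shControl arrays. SCAMP1-AS1 had 11.5 and 37.6 on shSOX11 arrays, against 65.3 and 56.6 on shControl arrays, while SCAMP1, a secretory carrier membrane protein gene, had 1164 and 1099 on shSOX11 arrays, against 1334 and 1121 on shControl arrays. SCAMP1 overlapped between groups. ZNF649-AS1 had 40.8 and 25.7 on shSOX11 arrays, against 19.1 and 4.20 on shControl arrays, which leaves a bound of at least 1.30-fold higher. ZNF571-AS1 had 32.8 and 29.6 on shSOX11 arrays, against 25.4 and 5.50 on shControl arrays, and its difference of 1.40 (SE 0.87) ranged from 0.30 to 2.50 without 1 array. Their zinc finger sense genes ZNF649 (0.30, SE 0.60) and ZNF571 (0.24, SE 0.58) overlapped. Limma adjusted p lay at 0.544 or above for all 12 genes.

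**Figure D4:**
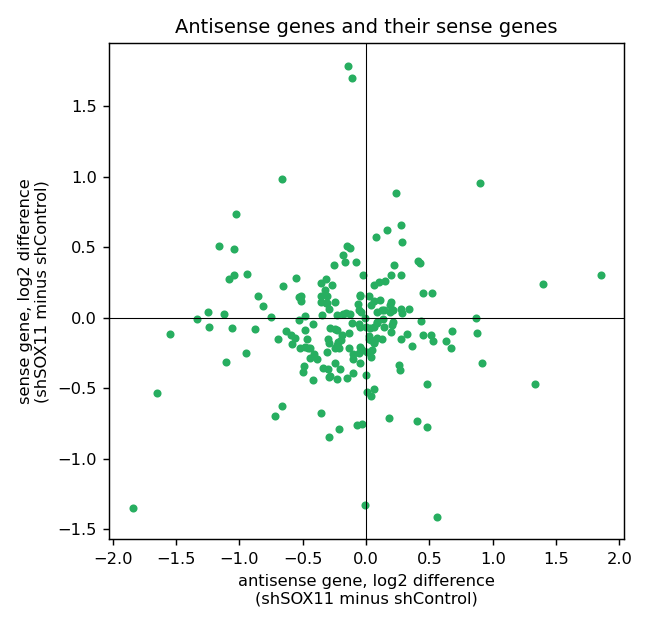
Each point is 1 of 194 pairs, with the log2 difference (shSOX11 minus shControl) of the antisense gene on the horizontal axis and of its sense gene on the vertical axis. Points fill all 4 quadrants, with 70 pairs lower in both and 33 higher in both.

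A rule of size was also applied: each shSOX11 array had to differ from each shControl array by at least 1.5-fold, on the same side. It held for 26 of the 445 genes, 21 lower (4.72%) and 5 higher (1.12%), against 1.93% lower and 0.762% higher among all 11938 genes. The counts were 2 and 0 with a pseudocount of 32, and 4 and 0 of 169 genes with a signal filter at the 65th percentile. Of these 26 genes 24 had a mean signal of 50 or less. At that level 19 of 278 long non-coding RNA genes were lower (6.83%) and 5 higher (1.80%), where the shares of all genes were 5.39% and 1.84%. Between 50 and 100 it was 1 of 88 lower and 0 higher, against 1.6% and 0.732%, and above 100 it was 1 of 79 lower and 0 higher, against 0.709% and 0.368%. Within each band the shares were close to those of all genes.

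Only 4 of the 21 lower genes were not under the threshold on both shSOX11 arrays, namely TRIM52-AS1, LINC02175, TTN-AS1 and SCAMP1-AS1. The other 17 had only a bound, between 1.07-fold and 1.69-fold lower. LINC00092 had 5.599 and 7.54 on shSOX11 arrays, against 36.7 and 39.8 on shControl arrays, so it was at least 1.54-fold lower (limma adjusted p = 0.474). LINC00460 had 20.4 and 19.8 on shSOX11 arrays, against 36.1 and 48.8 on shControl arrays and was at least 1.69-fold lower (limma adjusted p = 0.597). LINC00304 had 6.36 and 3.17 on shSOX11 arrays, against 34.4 and 27.4 on shControl arrays, at least 1.24-fold lower, and LIN28B-AS1, antisense to the gene of a let-7 inhibitor, had 13.6 and 4.76 on shSOX11 arrays, against 46.6 and 27.7 on shControl arrays, at least 1.45-fold lower. In these 4 genes both shControl values were above the threshold and both shSOX11 values under it. The remaining lower genes were LINC00208, LINC00824, LINC00944, LINC01700, LINC01920, LINC02708, A1BG-AS1, GTF2A1-AS1, PTOV1-AS2, PYCARD-AS1, TMEM51-AS1, VASH1-AS1 and ZBTB20-AS1. All 5 higher genes, LINC00266-1, LINC00663, LINC01533, KRABD1-AS1 and LDLRAD4-AS1, were under the threshold on both shControl arrays, with bounds from 1.12-fold to 1.37-fold. LINC01533 had 32.4 and 35.7 on shSOX11 arrays, against 9.93 and 18.7 on shControl arrays.

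**Figure D5:**
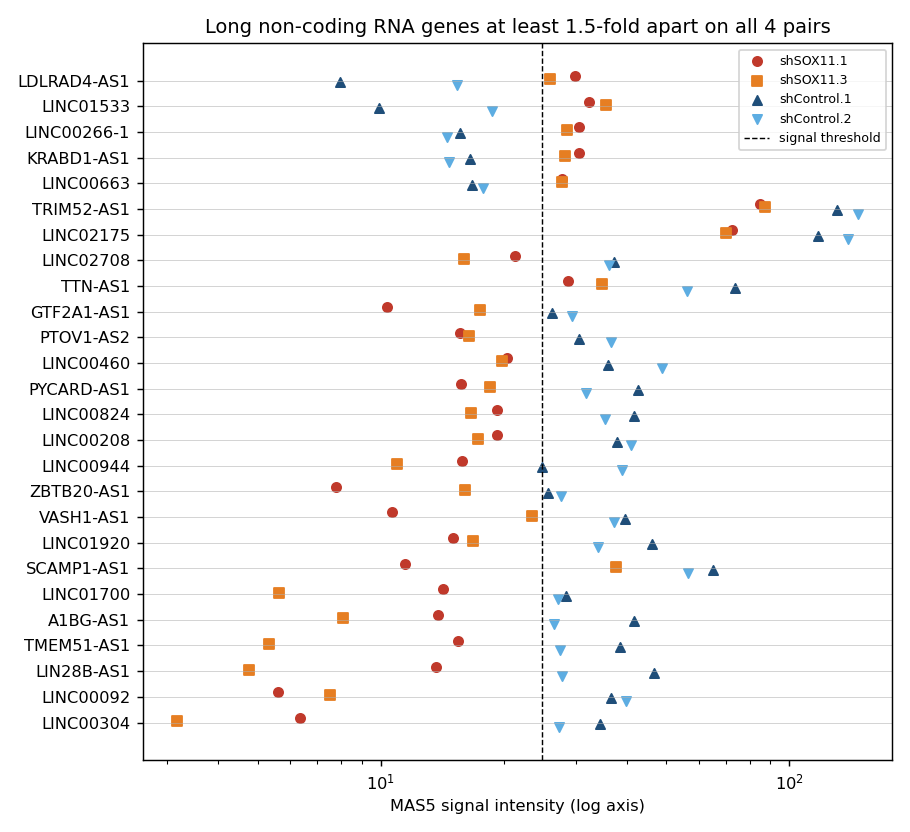
MAS5 signal on each array (log axis) for the 26 long non-coding RNA genes that meet the 1.5-fold rule, with the signal threshold of 24.83 as a dashed line. The top 5 genes are higher on the shSOX11 arrays, the 21 below are lower, and apart from TRIM52-AS1, LINC02175, TTN-AS1 and SCAMP1-AS1 each gene has 1 group entirely under the threshold.

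The start windows of 14 of the 21 lower genes and 3 of the 5 higher genes are in the RefSeq promoter table. The letters ACAAAG or ACAATG, a form of the core bound by SOX proteins, were searched on both strands in the 300 bases around each start. They were in 0 of the 14 and 1 of the 3, against 24.6% of all 27305 genes and 22.4% of the 348 long non-coding RNA genes listed. Among the 7 snoRNA host genes, 3 held these letters (42.9%). This describes the letters of these windows only.

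Of the 445 genes 78 had more than 1 probe set past the filter. All of a gene's probe sets had the same sign in 42 of these, 28 lower and 14 higher, and the signs differed in 36. The other 367 genes rest on a single probe set, and 24 genes rest on an _x_at probe set.

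Genes that act on these RNAs were described from lists of textbook members. Listed genes that are not counted as tested had no probe set of a single symbol past the filter. Of 9 core snoRNP proteins, which bind snoRNAs, 7 were tested, 6 lower and 1 higher, with a median of -0.20. The methyltransferase FBL had 6615 and 4818 on shSOX11 arrays, against 6736 and 6673 on shControl arrays (-0.25, SE 0.17), NOP58 lay at -0.30 (SE 0.16) and GAR1 at -0.29 (SE 0.16). Both shSOX11 values lay under both shControl values in 4 of the 7, where 24.9% of all genes did so. With each array centred on its median the list's median was -0.117. Without centring, the list's median against the control mean was -0.06 in shSOX11.1 cells and -0.27 in shSOX11.3 cells. Of 14 nonsense-mediated decay factors, which degrade many host transcripts after splicing, 7 were tested and all were lower in the mean, with a median of -0.21, but with each array centred on its median 4 were lower and 3 higher. RBM8A, of the exon junction complex, had 2559 and 2465 on shSOX11 arrays, against 3284 and 3112 on shControl arrays (-0.35, SE 0.13), SMG5 lay at -0.45 (SE 0.21) and the helicase UPF1 at -0.34 (SE 0.19). Of 18 nuclear exosome genes 17 were tested, 9 lower and 8 higher (8 and 9 with centring), with a median of -0.08. The exosome adaptor RBM7 had 322 and 286 on shSOX11 arrays, against 204 and 176 on shControl arrays (0.68, SE 0.18, limma adjusted p = 0.394), ZFC3H1 lay at 0.53 (SE 0.17) and the helicase MTREX at 0.41 (SE 0.14). These 3 were higher without overlap, where 16.2% of all genes were. Named after their values were seen, EXOSC4 (-0.46, SE 0.18), ZCCHC7 (-0.40, SE 0.18), EXOSC1 (-0.31, SE 0.18) and EXOSC2 (-0.14, SE 0.16) were lower without overlap, where 24.9% of all genes were.

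Of 9 paraspeckle proteins 8 were tested, 6 lower and 2 higher (4 and 4 with centring), with a median of -0.09. PSPC1 lay at -0.31 (SE 0.16), SMARCA4 at -0.26 (SE 0.15) and RBM14 at -0.37 (SE 0.24). Of 9 microRNA processing genes 8 were tested, 3 lower and 5 higher, with a median of 0.06 (2 and 6 with centring, median 0.145). The Argonaute gene AGO2 had 253 and 260 on shSOX11 arrays, against 176 and 201 on shControl arrays (0.45, SE 0.18), AGO1 lay at -0.33 (SE 0.18) and TARBP2 at -0.15 (SE 0.17). The MYC and E2F factors, known regulators of MIR17HG, had 5 of 6 tested, 3 lower and 2 higher, with a median of -0.21 (-0.127 with centring), E2F2 at -0.39 (SE 0.15), E2F1 at -0.39 (SE 0.24) and MAX at -0.21 (SE 0.15). In all of these lists 0 genes passed an adjusted p of 0.05 in limma, and 7 of 52 lay under an unadjusted 0.05 (13.5%), beside 8.38% of all genes.

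Long non-coding RNAs with other symbols were followed in a list of 20, of which 13 were tested, 10 lower and 3 higher, with a median of -0.24 (9 and 4 with centring, median -0.156). ZFAS1, itself a snoRNA host, had 3741 and 2800 on shSOX11 arrays, against 4585 and 4618 on shControl arrays (-0.51, SE 0.17, limma adjusted p = 0.484). KCNQ1OT1, an imprinted antisense transcript, had 189.6 and 175 on shSOX11 arrays, against 250.02 and 265 on shControl arrays (-0.50, SE 0.18). Both were lower on both shSOX11 arrays. RPPH1, the RNA of ribonuclease P, had 15.9 and 7.79 on shSOX11 arrays and 83.1 and 66.9 on shControl arrays. Both shSOX11 values were under the threshold, which leaves a bound of at least 3.002-fold lower (limma adjusted p = 0.316).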

How the data were processed

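Each deposited value is a linear signal intensity of 1 probe set on 1 array. The submitters' processing notes name Expression Console and MAS5; the sources used here give no version, scaling target or build. MAS5 subtracts mismatch signals, so dim values are noisy. Of 54675 probe sets 41091 had 1 symbol in the platform annotation, 1801 several and 11721 none, leaving out 62 controls; 0 sample columns went unused. Of the 445 genes 443 matched RefSeq by symbol (441 lncRNA, 2 antisense RNA).

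Signals were log2 transformed with no pseudocount. Each gene is its probe set past the filter with the highest mean log2 signal. Groups came from the titles. limma 3.58.1 (R 4.3.3, lmFit and eBayes with trend, two-sided, Benjamini-Hochberg over 11938 genes) had 2 residual degrees of freedom, 8.39 after moderation; an exact permutation test cannot go below 0.333. A gene under 24.83 on both arrays of a group has a bound, the other group's mean over 24.83. The limma step was tested on simulated arrays. Members and lists were chosen with earlier results of these data known. Named were MALAT1, the DLEU genes, all host genes, the 5 brightest genes, the 10 of smallest p per direction, those 1.5-fold apart, the 6 antisense pairs of largest fitted difference and 3 genes per list. Alternatives were median centring, quantile normalization, adding 32 before log2, other filters, no trend, the mean of probe sets, no _x_at probe sets and leaving out each array.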

Additional observations from a re-analysis of the deposited data

How the results depend on the processing

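No paired analysis was possible because the groups share only the number 1 among their construct numbers. The count of all genes and of long non-coding RNA genes past limma's threshold was 0 in each setting with 4 arrays. Leaving out 1 array gave 0 to 953 genes (953 without shSOX11.1, 211 without shSOX11.3) and 0 to 9 long non-coding RNA genes (9 without shSOX11.1, 2 without shSOX11.3). SOX11 then passed, at -1.24 to -1.23, with adjusted p = 0.0031 without shSOX11.1 and 0.0021 without shSOX11.3. Such fits take the error from the closer shControl arrays. The 1.5-fold counts were 4 lower and 0 higher of 169 genes with a filter at the 65th percentile, 125 and 83 of 1666 without a filter, 2 and 0 with a pseudocount of 32, and 38 to 65 lower and 9 to 29 higher without 1 array, where only 2 pairs remain. The median over the 445 genes was -0.021 with median centring and -0.141 to -0.013 without 1 array, and for all genes it was 0.02 with centring. The snoRNA host median kept its sign, at -0.29 with a pseudocount of 32, -0.26 over the probe sets of several symbols (added after seeing the data) and -0.61 to -0.32 without 1 array. The median log2 change of antisense genes with a tested sense gene was -0.026 with centring and -0.12 to -0.0079 without 1 array. The sense median turned to 0.019 with the mean of probe sets and 0.015 with centring. With the mean of probe sets the sign turned for MALAT1 (0.34), DLEU2 (0.013), SNHG33 (0.11), MIR570HG (0.051), MIR1915HG (-0.81), MAX (0.18) and SCAMP1 (0.30). MALAT1 was also 0.10 without _x_at probe sets and 0.11 after quantile normalization, and MIR17HG 0.047 with centring. Without 1 array the sign was not kept for OIP5-AS1 (-0.40 to 0.17), DLEU1 (-0.19 to 0.26), SNHG33 (-0.35 to 0.063), MIR570HG (-0.30 to 0.10), MIR17HG (-0.42 to 0.35), MIR99AHG (-0.37 to 1.05), MIRLET7BHG (-0.61 to 0.26), MIR1915HG (-0.30 to 0.94), SNHG22 (-0.066 to 0.47), MIR4307HG (-0.65 to 0.17), RBM14 (-0.76 to 0.021), ZNF649 (-0.52 to 1.13), SCAMP1 (-0.24 to 0.013) and ZNF571 (-0.30 to 0.78). Of 88 named genes 74 kept their sign without any 1 array, and in 51 of these the ends of the range lay over 1.5 times apart. In all, 71 of 88 named genes kept their sign in every setting, and the cause of each change was not tested.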

Other observations

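Ribosomal protein genes, whose messenger RNAs are known to begin with a pyrimidine tract, were looked at after the snoRNA host values were seen. Of 59 ribosomal protein genes tested 56 were lower and 3 higher in the mean of the shSOX11 arrays, where 6931 of all 11938 genes were lower. The shSOX11 arrays were not taken singly for this set. Against the control mean, the median over all genes was -0.0043 in shSOX11.1 cells and -0.098 in shSOX11.3 cells. The median log2 difference of the 59 was -0.19, beside -0.47 for the 7 snoRNA host genes and -0.06 for all genes. With each array centred on its median the counts stayed 56 and 3, with a median of -0.108. This count has no test. At the RefSeq starts, 3 of the 7 snoRNA host genes began with such a tract, and these need not be the starts used in Z138 cells. Whether a pyrimidine start bears on either set was not tested.

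Of the 194 antisense pairs, both genes had groups that did not overlap in the same direction in 20, and in opposite directions in 9. Among all genes taken singly, groups did not overlap in 24.9% on the lower side and 16.2% on the higher side. No expected count of pairs was computed. Among the 9, TTN-AS1 and its sense gene TTN, the gene of the muscle protein titin, stood apart in opposite directions, chosen here after the values were seen. TTN had 292 and 259 on shSOX11 arrays, against 162 and 167 on shControl arrays, a log2 difference of 0.74 (SE 0.18, limma adjusted p = 0.39), while TTN-AS1 lay at -1.02 and at -0.33 at its second probe set. In SLC25A25, a mitochondrial carrier gene, the sense signal was 42.8 and 50.7 on shSOX11 arrays, against 6.09 and 29.9 on shControl arrays, while SLC25A25-AS1 had 210.5 and 211.5 against 237 and 229.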
